A study of Mus musculus with 4 samples.

Results

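The genes described here encode the lysosome: 13 proteases, most of them cathepsins, 11 glycosidases and sulfatases, 8 genes for lipid breakdown, saposins and granulins, 6 membrane proteins including a subunit of the proton pump, and the transcription factor Tfeb. They were chosen by symbol from a list of 39, and a gene was kept where at least 1 library held 20 or more counts. All 39 were kept, out of 18949 genes that passed the same minimum and 23337 gene symbols in all. The lysosome is the acid compartment in which a cell digests what it takes up and what it recycles. Its enzymes are tagged with mannose 6-phosphate in the Golgi, delivered through endosomes and activated as the V-ATPase pumps protons into the lumen. TFEB and its relatives of the MiT/TFE family bind an E-box in the promoters of many lysosomal genes, known as the CLEAR element, and so can raise them together. In endothelium the compartment handles cargo taken up by scavenger receptors, a task for which sinusoidal endothelium is best known.

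RNA was sequenced from 4 pools of mouse embryonic lymphatic endothelial cells, with 1 library in each group: wild type before culture, mutant before culture, wild type after culture and mutant after culture. Before culture, LYVE1 and VECAD positive, CD45 negative cells were isolated by FACS from dorso-anterior tissue of embryos at day 14.5, with a whole litter pooled for each genotype. The mutant is homozygous for a deletion; the series title names an enhancer bound by GATA2, and the published study identifies it as an enhancer of Prox1, the gene that specifies lymphatic identity. The cells after culture come from the other part of the same sorts, grown for 7 days on OP9, a mouse bone marrow stromal line used as a feeder for blood cell formation, with FLT3L, IL3 and SCF at 100 ng/ml each. LYVE1 and VECAD positive cells were then sorted again, with no removal of CD45 positive cells stated for that sort. The strain is not given in the sources used here. The study asked how the deletion changes these cells and, through the culture, whether they have blood-forming potential.

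Gene counts per library ranged from 1694669 to 7943587. Levels are CPM (counts scaled to a common library size) with the scaling factors of the trimmed mean of M values (TMM), and wherever 4 values are given for a gene they stand in the order wild type before, mutant before, wild type after and mutant after culture. A fold is the ratio of the levels of 2 libraries, with a 95% interval in parentheses that covers counting error only. Calls of higher or lower required the entire interval to clear 2-fold and 20 or more counts in either library, and "rose" and "fell" are used only of such genes. With 1 library per group no value has a replicate check, so each fold compares 2 libraries and has no p-value. A single fit over all 4 libraries, described below, is the exception. In pooled cells, fewer cells of a type and less RNA per cell cannot be told apart.

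Promoters of these genes are shown first because the E-box ties the enzymes to the MiT/TFE factors. RefSeq promoters, each from 250 bases before to 50 after a start site on GRCm38.p6, were found for 35 of the 39 genes. The E-box CACGTG was present in 12 of the 35 genes, or 34.3%, against 8.09% of 27025 genes with a promoter of that length. The longer form TCACGTGA, which contains the shorter one, was present in 4 of them (Ctsa, Ctsd, Gla and Mcoln1), or 11.4%, against 1.12% of all genes. Both motifs are palindromes, so a match on 1 strand is a match on both. Among genes with a single promoter entry the shares were 33.3% of 30 listed genes and 7.12% of all genes for CACGTG. The stretches below are those of the genes whose values carry the results, read 5′ to 3′ on the gene's own strand, with the E-box in capitals and, where it is there, the flanking T and A of the longer form. Stretches that meet an annotated exon of some transcript are kept to at most 30 bases.
Lamp1, chr8:13159080-13159160, plus strand: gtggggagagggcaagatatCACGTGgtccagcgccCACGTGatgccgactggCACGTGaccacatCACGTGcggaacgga
Ctsd, chr7:142387908-142387937, minus strand: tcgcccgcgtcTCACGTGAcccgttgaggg
Ctsd, chr7:142388047-142388077, minus strand: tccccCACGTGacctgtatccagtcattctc
Ctsl, chr13:64370739-64370768, minus strand: ggcgttagaagcCACGTGctgatctaaatt
Naglu, chr11:101070009-101070038, plus strand: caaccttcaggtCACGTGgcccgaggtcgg
Mcoln1, chr8:3500462-3500491, plus strand: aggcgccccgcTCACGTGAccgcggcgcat
Gaa, chr11:119267803-119267848, plus strand: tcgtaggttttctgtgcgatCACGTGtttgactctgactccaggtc
Lamp1 held 4 copies of the E-box in the 81 bases before its start site. The E-box of Naglu began 73 bases before the start site, the longer form in Ctsd 98 bases before it and the single E-box of Ctsl 236 bases before it. The match is a description of these letters and says nothing of binding in these cells.

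After culture the lysosomal genes stood higher as a group in both genotypes. In wild type cells 23 of 38 measured genes were called higher and 0 lower, where 8.17% of all 17154 genes tested were called higher and 5.77% lower. In mutant cells 17 of 39 were called higher and 2 lower, where 5.19% of all 18807 genes tested were called higher and 3.62% lower. The median log2 fold of the genes was 1.57 in wild type and 1.11 in mutant cells, against -0.04 and -0.10 over all genes tested. Their summed level was 2124, 2503, 8507 and 7181 CPM, which gives a fold of 4.01 (3.9 to 4.11) in wild type and 2.87 (2.82 to 2.92) in mutant cells. A set of 16 genes was called higher in both genotypes, 42.1% of the 38 measured in both, where 4.93% of all genes measured in both were. It spans every enzyme class and the membrane: Ctsb, Ctsd, Ctsl and Tpp1, Naglu, Idua and Neu1, Psap, Lipa, Asah1 and Grn, and Lamp1, Lamp2, Scarb2, Mcoln1 and Tcirg1. None of the 38 was called in opposite directions in the 2 genotypes, where 1 of all 17012 genes measured in both was.

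The uncultured and cultured cells of a genotype came from the same sorts, so culture was also tested in 1 fit over the 4 libraries with genotype as the block, a test chosen after the data had been seen. With edgeR's quasi-likelihood test and Benjamini-Hochberg adjustment at 0.05, 32 of the 39 genes were higher after culture and 3 lower, where 24.1% of all 18949 genes were higher and 16.5% lower. The lower ones were Ctsz, with a log2 fold of -0.70 (adjusted p = 0.00303), Tfeb, with -1.41 (adjusted p = 8.45e-06), and Ctsc, with -2.89 (adjusted p = 0.00287), whose counts before culture were mostly at the level of background. Ctsf, Ctsk, Ctss and Npc1 did not pass. Of the higher genes Ctsd had a log2 fold of 3.11 (adjusted p = 7.06e-47). The same fit gave 0 genes of the list for genotype over both stages, where 0.0106% of all genes were higher in the mutant and 0.0211% lower. At an unadjusted p under 0.05 it gave 0 of the list and 315 of all 18949 genes. Genotype folds of the list leaned in opposite directions before and after culture, as given below. A single genotype term over both stages averages these out, with a median log2 fold of 0.01, and cannot show a difference at either stage. That fit takes the difference between the culture folds of the 2 genotypes as its error, with 1 residual degree of freedom and a spread shared across genes, so its p-values do not measure variation between replicate sorts.

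Scaling bears on how many genes pass 2-fold. With library totals in place of TMM factors, the median log2 fold of all genes shifted by -0.60 in the wild type comparison and -0.43 in the mutant one. Of the lysosomal genes 12 and 8 were then called higher, where 516 of 17154 and 493 of 18807 genes were. Relative to the median of all genes, the lysosomal median was 1.61 with TMM and 1.59 with library totals in wild type cells, and 1.21 and 1.19 in mutant cells. The 6 genes called higher in both genotypes under library totals were Ctsd, Ctsl, Lamp1, Lamp2, Tcirg1 and Tpp1.

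**Figure D1:**
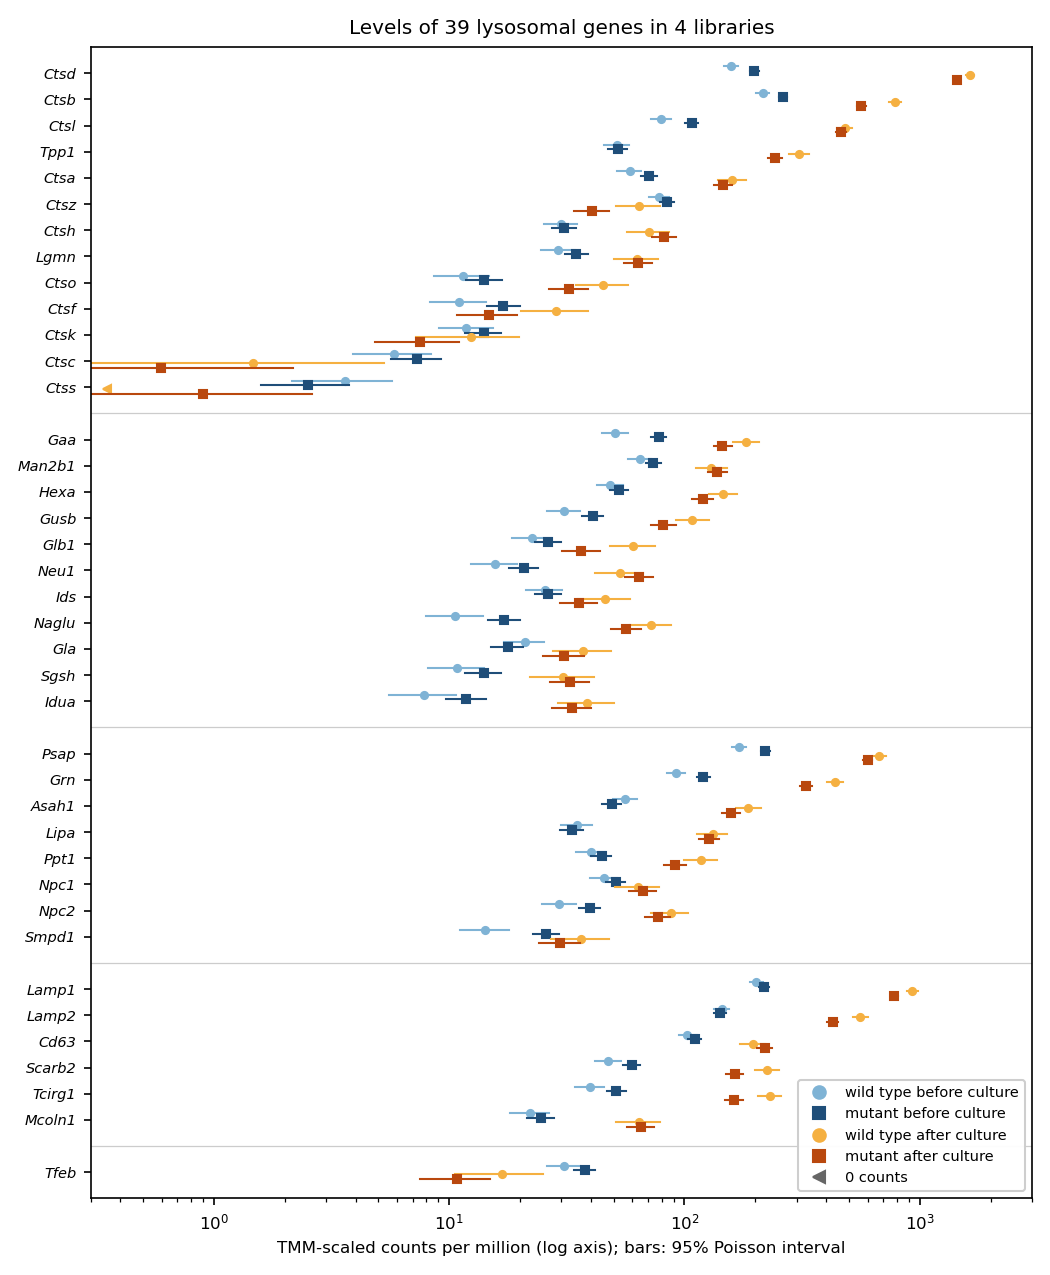
Level of each lysosomal gene in the 4 libraries in CPM with TMM scaling on a log axis, grouped by role, with 95% Poisson intervals that are cut at the left edge. Ctsd runs from 158 CPM in wild type cells before culture to 1638 CPM after culture, while Ctsz and Tfeb have their lowest levels after culture.

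Ctsd, the aspartic protease cathepsin D, rose in both genotypes, with the highest fold of the 39 genes in the deposited counts. Its counts were 787, 1821, 2251 and 4811, and its levels 158, 198, 1638 and 1439 CPM. Both cultured libraries stood far above both uncultured ones, by 10.4-fold (9.56 to 11.3) in wild type and 7.28-fold (6.9 to 7.69) in mutant cells. With background counts subtracted and TMM factors fitted again, as described further on, the folds were 7.41 and 6.13. Background made up 1.98% and 1.07% of the Ctsd counts before culture. In that setting Idua stood higher than Ctsd in wild type cells. Ctsl, the cysteine protease cathepsin L, had counts of 396, 991, 658 and 1553 and levels of 79.5, 108, 479 and 464 CPM. It rose 6.02-fold (5.31 to 6.84) and 4.32-fold (3.98 to 4.68), and the intervals of its 2 levels after culture overlapped. In the GENCODE vM21 annotation, 34.4% of the exon sequence of Ctsd and 26.8% of that of Ctsl is shared with predicted genes, and how the deposited counts treated these stretches is not stated.

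Tpp1, an exopeptidase that removes tripeptides, stood at 51.6, 52.1, 307 and 242 CPM and rose 5.95-fold (5.09 to 6.98) and 4.65-fold (4.15 to 5.22). Its levels before culture were near-equal in the 2 genotypes. Ctsb, the cysteine protease cathepsin B, had the most counts of the proteases before culture, with levels of 215, 262, 783 and 565 CPM. It rose 3.65-fold (3.35 to 3.97) in wild type and 2.15-fold (2.03 to 2.29) in mutant cells. The mutant fold lay close to the 2-fold limit and was not called with library totals (1.58) or with background subtracted (1.82). Ctsa, the carboxypeptidase that also shields Neu1 and Glb1 from breakdown, had levels of 58.4, 70.9, 159 and 146 CPM. Its fold of 2.73 (2.28 to 3.26) in wild type cells was called, and that of 2.06 (1.83 to 2.32) in mutant cells was not. Ctso, a cysteine cathepsin, was called in wild type cells alone, at 3.94 (2.71 to 5.75) against 2.29 (1.76 to 2.98). The aminopeptidase Ctsh was called in mutant cells alone, at 2.65 (2.24 to 3.14) against 2.36 (1.81 to 3.07) in wild type cells. The ratio of these 2 folds of Ctsh held 1 within its interval, at 1.12 (0.828 to 1.52), so the call in 1 genotype does not mark a difference between them. The wild type calls of Ctsa and Ctso and the mutant call of Ctsh were lost with library totals, and that of Ctsa also with background subtracted.

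Not every protease went up. Ctsz, a carboxypeptidase of the cathepsin family, had counts of 389, 777, 88 and 135 and levels of 78.1, 84.3, 64 and 40.4 CPM. Its mutant library after culture was the lowest of the 4, with a culture fold of 0.479 (0.396 to 0.575) in mutant cells and 0.82 (0.643 to 1.04) in wild type cells. Neither was called, but the mutant fold was called lower with library totals (0.351) and with background subtracted (0.398). Ctsk, a collagen-degrading protease best known from osteoclasts, stood at 11.8, 14, 12.4 and 7.48 CPM, with folds of 1.04 (0.571 to 1.82) and 0.534 (0.333 to 0.824). Ctss, typical of antigen-presenting cells, had counts of 18, 23, 0 and 3. Ctsc, which activates the granule proteases of immune cells, had counts of 29, 67, 2 and 2 and was called lower in mutant cells, 12.2-fold (3.24 to 102). The background expected from genes that should be silent came to 133% and 72.1% of its counts before culture, and the call was lost with background subtracted. Ctsf was at 11, 17, 28.4 and 14.7 CPM, with folds of 2.57 (1.66 to 3.95) in wild type and 0.86 (0.611 to 1.19) in mutant cells. The ratio of its folds, 0.335 (0.199 to 0.563), was the lowest of all the genes whose interval lay below 1. Lgmn, which cuts after asparagine and matures other cathepsins, had folds of 2.15 (1.63 to 2.83) and 1.83 (1.53 to 2.18) and was not called.

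Because the proteases moved unequally, the make-up of their transcripts differed between the uncultured and the cultured libraries. Per kb of annotated exon, which allows genes to be compared, Ctsd held 29.7% and 31.4% of the summed protease level before culture and 63.2% and 64.9% after it. Ctsz held 23.9% and 21.8% before culture, second to Ctsd, and 4.03% and 2.97% after it. The share of Ctsb was 15.7%, 16.2%, 11.7% and 9.9%, and that of Ctsl 5.41%, 6.19%, 6.69% and 7.59%. The 2 genotypes lay closer to each other than to their own cultured or uncultured counterpart for Ctsd and Ctsz. Among all 39 genes, Lamp1 ranked above Ctsd in wild type cells before culture, at 12.9% against 11.5% of the summed level per kb, and Ctsd ranked above Lamp1 in the other 3 libraries.

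**Figure D2:**
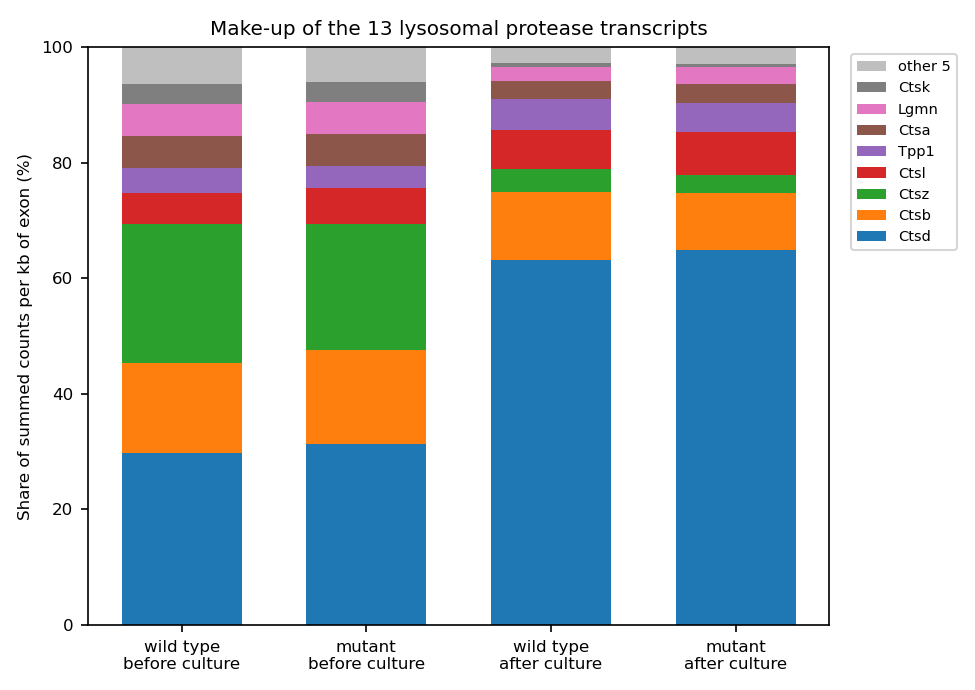
Share of each protease in the summed level per kb of exon of the 13 proteases, in percent, 1 bar per library. Ctsd takes 29.7% and 31.4% of the bars before culture and 63.2% and 64.9% of those after culture, while Ctsz goes from 23.9% and 21.8% to 4.03% and 2.97%.

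The glycosidases and sulfatases strip sugars and sulfate from glycans, glycogen and glycosaminoglycans. In wild type cells 6 of 11 were called higher and in mutant cells 3 of 11, with none lower. All 11 had a fold whose interval lay above 1 in both genotypes. Over all genes tested this held for 5812 of 17154 in wild type and 6097 of 18807 in mutant cells. Naglu, which degrades heparan sulfate, had counts of 53, 158, 99 and 189 and levels of 10.6, 17.1, 72 and 56.5 CPM. It rose 6.77-fold (4.8 to 9.64) in wild type and 3.3-fold (2.65 to 4.1) in mutant cells, with both cultured libraries above both uncultured ones. Idua, which acts on heparan and dermatan sulfate, stood at 7.83, 11.8, 38.6 and 33.2 CPM and rose 4.93-fold (3.2 to 7.65) and 2.81-fold (2.13 to 3.69). Its 39 counts in wild type cells before culture were mostly at the level of background, which would account for 71.4% of them. The sialidase Neu1 stood at 15.7, 20.7, 53.1 and 64.3 CPM and rose 3.39-fold (2.43 to 4.73) and 3.1-fold (2.54 to 3.79).

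Gaa, the acid glucosidase that breaks down glycogen, was at 50.8, 77.7, 183 and 145 CPM, with a called fold of 3.61 (3.02 to 4.32) in wild type cells and 1.87 (1.66 to 2.1) in mutant cells. Gusb, the glucuronidase, was at 30.7, 40.8, 108 and 81.3 CPM, with 3.53 (2.8 to 4.45) and 1.99 (1.7 to 2.34). Hexa, a subunit of hexosaminidase, was at 48.4, 52.8, 146 and 120 CPM, with 3.02 (2.49 to 3.66) and 2.27 (1.98 to 2.59). For these 3 enzymes the wild type fold was called and the mutant one was not, and the wild type calls were lost with library totals, that of Hexa also with background subtracted. The mannosidase Man2b1, at 64.6, 73.8, 130 and 138 CPM, had folds of 2.02 (1.67 to 2.43) and 1.88 (1.66 to 2.11) and was not called. The 4 remaining enzymes, Gla, Glb1, Ids and Sgsh, had folds from 1.78 to 2.82 in wild type and from 1.35 to 2.33 in mutant cells, and none was called. With library totals the calls of Neu1 in both genotypes and of Naglu and Idua in mutant cells were lost.

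Among the genes for lipid handling, saposins and granulins, 6 of 8 were called higher in wild type and 4 of 8 in mutant cells. Psap, the precursor of the saposins that present lipids to hydrolases, had the most counts of the group, with 854, 2034, 924 and 2007. Its levels were 171, 221, 672 and 600 CPM, a rise of 3.92-fold (3.57 to 4.31) and 2.72-fold (2.55 to 2.89). Grn, the progranulin gene, stood at 92.3, 120, 436 and 329 CPM and rose 4.72-fold (4.17 to 5.34) and 2.73-fold (2.51 to 2.97). For both genes the cultured wild type library was the highest of the 4. Lipa, the acid lipase, was at 34.9, 33.2, 132 and 127 CPM and rose 3.77-fold (3.05 to 4.67) and 3.83-fold (3.3 to 4.45), with a ratio of folds of 1.01 (0.787 to 1.31). Asah1, the acid ceramidase, was at 56, 49, 187 and 158 CPM and rose 3.34-fold (2.81 to 3.97) and 3.23-fold (2.84 to 3.67).

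Npc2 and Ppt1 were called in wild type cells alone. Npc2, which hands cholesterol to Npc1, had folds of 2.98 (2.32 to 3.82) and 1.95 (1.65 to 2.29) from levels of 29.3, 39.5, 87.3 and 76.9 CPM. Ppt1, which removes palmitate from proteins, had folds of 2.95 (2.38 to 3.65) and 2.06 (1.77 to 2.4) from levels of 39.9, 44.4, 118 and 91.5 CPM. Both wild type calls were lost with library totals, and that of Ppt1 also with background subtracted (2.33). Library totals also ended the calls those of Lipa and Asah1 in wild type and of Psap and Grn in mutant cells. Folds of the cholesterol exporter Npc1 were 1.4 (1.08 to 1.79) and 1.3 (1.1 to 1.53). The acid sphingomyelinase Smpd1 had 2.55 (1.74 to 3.72) and 1.15 (0.901 to 1.46). Neither was called.

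Membrane proteins were the group most fully called, at 5 of 6 in each genotype. Lamp1 and Lamp2 coat the inner face of the lysosomal membrane. Lamp1 had counts of 1007, 2007, 1280 and 2613 and levels of 202, 218, 931 and 781 CPM, and rose 4.61-fold (4.24 to 5.01) and 3.59-fold (3.38 to 3.8). Lamp2 had levels of 144, 142, 559 and 427 CPM and rose 3.88-fold (3.5 to 4.3) and 3.01-fold (2.79 to 3.25). For both, the 2 libraries before culture were close together and the cultured wild type library was the highest. Tcirg1, a subunit of the membrane part of the V-ATPase, was at 39.7, 51.4, 230 and 162 CPM and rose 5.79-fold (4.83 to 6.95) and 3.16-fold (2.79 to 3.58). Scarb2, which carries glucocerebrosidase to the lysosome, was at 47.4, 59.7, 224 and 164 CPM and rose 4.73-fold (3.98 to 5.63) and 2.75-fold (2.43 to 3.1). Mcoln1, the calcium channel of the lysosome, was at 22.1, 24.5, 64 and 65.2 CPM and rose 2.9-fold (2.17 to 3.87) and 2.66-fold (2.2 to 3.22). The tetraspanin Cd63, at 103, 111, 196 and 220 CPM, had folds of 1.89 (1.63 to 2.2) and 1.98 (1.8 to 2.18) and was not called. With library totals the calls of Mcoln1 in both genotypes and of Scarb2 in mutant cells were lost.

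Tfeb went the other way from most of the genes it is known to activate. Its counts were 153, 347, 23 and 36 and its levels 30.7, 37.7, 16.7 and 10.8 CPM, so that both cultured libraries were below both uncultured ones. It fell 3.5-fold (2.48 to 5.08) in mutant cells, and its fold of 0.545 (0.335 to 0.848) in wild type cells was not called. Its activity is known to be set largely by phosphorylation and entry into the nucleus, which these data do not measure. Of 16 related genes (the other MiT/TFE factors and the TORC1 machinery on the lysosome), 2 were called higher in each genotype and none lower. They were the factor Tfe3, at 20.3, 32, 77.1 and 83.1 CPM with folds of 3.8 (2.87 to 5.05) and 2.6 (2.2 to 3.07), and Flcn, which controls how these factors are held in the cytoplasm, with folds of 3.45 (2.71 to 4.39) and 2.71 (2.31 to 3.18). Mitf had folds of 0.581 (0.348 to 0.926) and 0.837 (0.607 to 1.14). Of the genes with CACGTG in a promoter 5 of 12 were called higher in both genotypes, and of those without it 9 of 23.

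**Figure D3:**
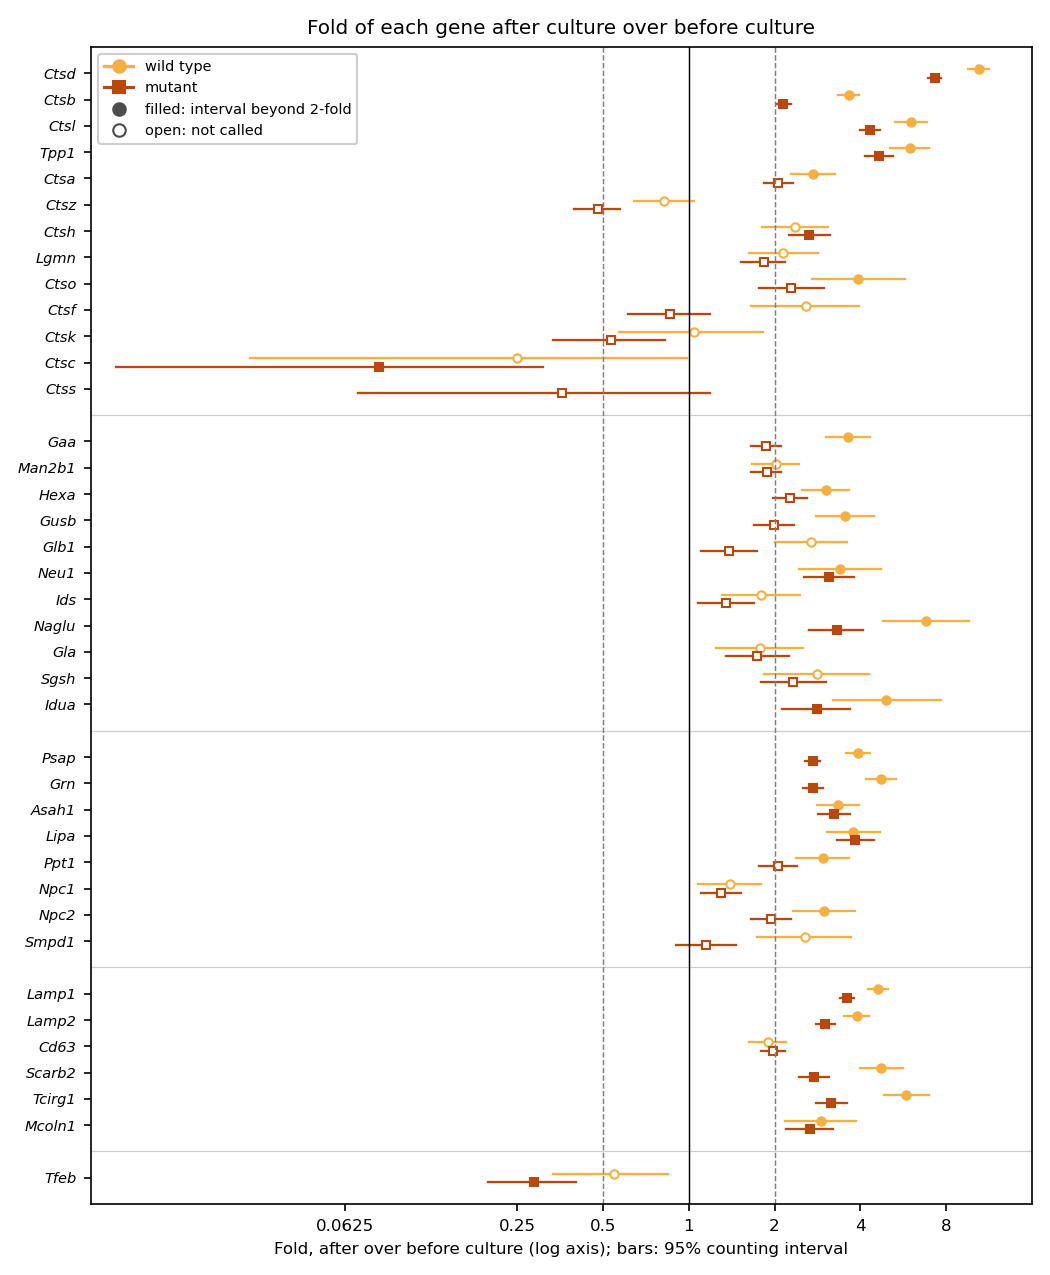
Fold of each gene after culture over before culture on a log axis, with 95% counting intervals; filled points have the whole interval beyond 2-fold, and the dashed lines stand at 0.5 and 2. Ctss in wild type cells is not drawn because it had too few counts. Most wild type points lie to the right of the mutant ones, and Tfeb lies to the left of 1 in both genotypes.

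Lists of other genes of the lysosomal system were read in the same way. Of 15 measured V-ATPase subunits, which acidify the lumen, 7 were called higher in wild type and 5 in mutant cells, with Atp6v0a1 at 4.79 (4.06 to 5.66) and 3.85 (3.46 to 4.27) and Atp6v1d at 2.63 (2.15 to 3.21) and 2.69 (2.35 to 3.08). A further subunit, Atp6v0c, was listed at 0 in every library. Background alone would give it 22.4 and 28.1 counts before culture, so this 0 cannot be read as absence of the transcript. Of 7 genes for the mannose 6-phosphate tag and sorting, 1 was called in wild type cells (Gnptg, 5.2, 2.96 to 9.28) and 0 in mutant cells. Gnptg had 23 counts in wild type cells before culture, where background alone would give 14.9. The large receptor Igf2r, with the most counts of that list, had folds of 2.11 (1.95 to 2.28) and 1.83 (1.74 to 1.92). Of 18 other hydrolases, 3 were called higher in wild type and 2 in mutant cells. The fucosidase Fuca1 had folds of 2.02 (1.54 to 2.65) and, called higher, 2.42 (2.05 to 2.87). Of 13 other membrane proteins, Laptm4a was called higher in wild type cells at 2.41 (2.13 to 2.72), and Laptm5, best known from blood cells, was called lower in mutant cells at 0.239 (0.136 to 0.393). Of 6 cathepsin inhibitors, 2 were called higher in each genotype: the secreted cystatin Cst3 at 4.64 (3.56 to 6.05) and 2.98 (2.47 to 3.58), and the serpin Serpinb6a at 4.88 (3.98 to 5.98) and 5.01 (4.38 to 5.73). Of 16 autophagy genes, 4 were called higher in wild type and 1 in mutant cells. Gabarapl1, of the family that decorates autophagosomes, was called in both at 5.79 (4.53 to 7.42) and 3.36 (2.87 to 3.92), and the cargo receptor Sqstm1 in wild type cells at 2.82 (2.52 to 3.15). Serpinb6a has close copies in its gene family, so its counts are uncertain.

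**Figure D4:**
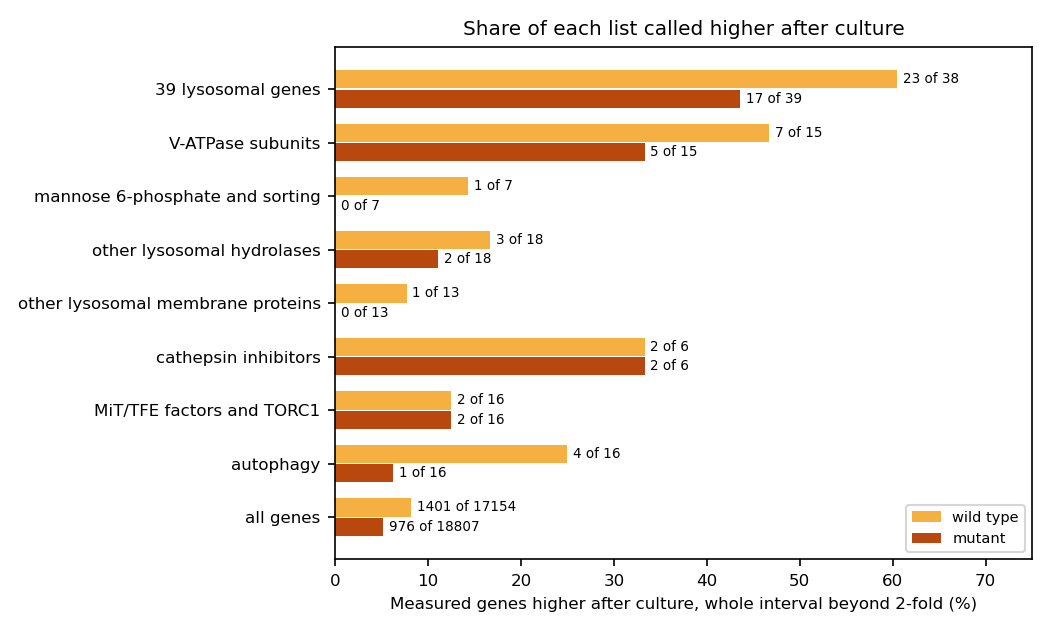
Percent of measured genes called higher after culture in each list and over all genes, with the counts beside the bars. The 39 lysosomal genes stand at 23 of 38 and 17 of 39, the V-ATPase subunits at 7 of 15 and 5 of 15, and all genes at 1401 of 17154 and 976 of 18807.

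For most lysosomal genes the culture fold was lower in mutant than in wild type cells. The ratio of the mutant fold to the wild type fold had a whole interval below 1 in 24 of 38 genes and above 1 in 0, where 15.7% of all 17910 genes tested lay below 1 and 6.31% above it. The median ratio was 0.7, against 0.98 over all genes. Ctsd had a ratio of 0.702 (0.637 to 0.774) and Ctsl one of 0.717 (0.618 to 0.831). Ratios near 0.5 were found for Naglu (0.487, 0.328 to 0.722), Gaa (0.518, 0.42 to 0.638), Tcirg1 (0.546, 0.439 to 0.677) and Smpd1 (0.451, 0.293 to 0.694). Of the genes called higher in both genotypes, Lipa, Asah1, Neu1 and Mcoln1 had a ratio whose interval held 1. The interval lay below 1 in 17 genes with library totals and in 18 with background subtracted, alternatives chosen after the data had been seen. Over all 17910 genes, 1454 lay below 1 and 2114 above it with library totals. With background subtracted, 1569 lay below and 1155 above.

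That ratio is built from small differences between the genotypes at both stages. Before culture 0 of 39 genes were called in either direction between mutant and wild type cells, where 0.0158% of all genes tested were called higher and 0.0475% lower. The counts were deep enough to place 17 of the 39 intervals above 1 and 0 below it, where 17.6% of all genes lay above and 8.54% below. The summed level of the genes was 1.18-fold (1.15 to 1.21) higher in the mutant library, with a median log2 fold of 0.28 against 0.04 over all genes. Library totals shifted the median of all genes by -0.11, and the lysosomal median stood 0.24 above it with either scaling. Smpd1 had the largest fold, 1.81 (1.38 to 2.39), followed by Naglu at 1.61 (1.17 to 2.24). Ctsl had a fold of 1.35 (1.2 to 1.52) and Ctsd one of 1.25 (1.15 to 1.36). Stromal markers stood higher in the same mutant library: all 10 had intervals above 1, and their summed level was 3437 CPM in wild type and 5447 CPM in mutant cells, a fold of 1.58 (1.56 to 1.61). The background of counts was lower there too, at 14.97% of wild type and 9.579% of mutant counts. With background subtracted and TMM factors fitted again, the lysosomal median was 0.16, against 0.01 over all genes. That setting changes counts and scaling at once, so it does not show the part of background alone. The part of stroma or background in the lysosomal folds was not tested.

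After culture 0 of 37 measured genes were called between the genotypes, where 0.244% of all genes tested were called higher and 0.0731% lower. The direction was the opposite of that before culture: 18 intervals lay below 1 and 0 above, where 12.3% of all genes lay below and 9.48% above. The summed level was 8507 CPM in wild type and 7181 CPM in mutant cells, a fold of 0.844 (0.826 to 0.863), and the median log2 fold was -0.29 against 0.00 over all genes. Ctsb had a fold of 0.722 (0.67 to 0.779), Tcirg1 one of 0.706 (0.614 to 0.814), and Ctsf the lowest, 0.516 (0.332 to 0.808). Ctsd had a fold of 0.879 (0.835 to 0.924), while that of Ctsl, 0.97 (0.885 to 1.06), held 1. Mast cell markers differed between the same 2 libraries, with 49.5 CPM of Cpa3 in wild type and 1.5 CPM in mutant cells, and 177 and 103 CPM for the summed list of 6. Of 4 measured mast cell markers Cpa3, Cma1 and Mcpt4 were called lower in the mutant library, while Kit, also made by other cells, went the other way, at 62.6 and 94.8 CPM. Summed levels of endothelial and stromal lists were also lower in the mutant library, with folds of 0.818 (0.798 to 0.839) for lymphatic markers, 0.904 (0.887 to 0.922) for endothelium at large and 0.835 (0.787 to 0.886) for stroma. That of sinusoidal endothelium was 1.03 (1 to 1.06) and that of macrophages 1.3 (1.16 to 1.47). The part of these lists in the lysosomal folds was not tested.

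**Figure D5:**
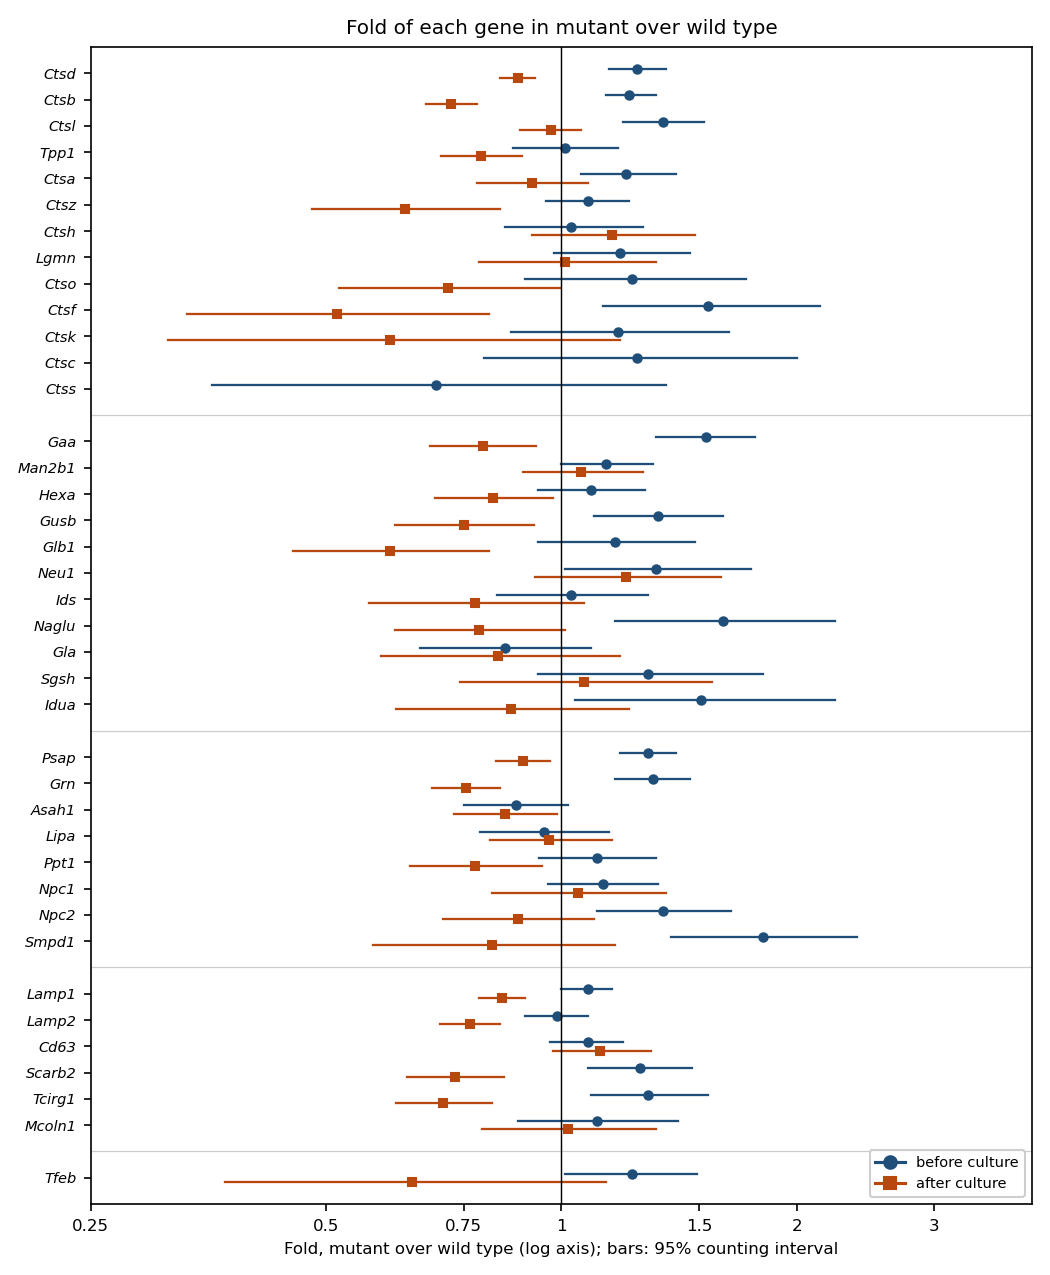
Fold of each gene in mutant over wild type cells before and after culture on a log axis, with 95% counting intervals. Before culture 17 intervals lie above 1 and 0 below, and after culture 0 above and 18 below; Ctsc and Ctss are not drawn after culture because they had too few counts.

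Markers of cell types were read in the same libraries, since phagocytes, osteoclasts and stromal cells are rich in some of these enzymes. The sorted cells carried lymphatic markers before culture, with Prox1 at 507 and 487 CPM and Lyve1 at 1072 and 890 CPM. Cells were sorted for LYVE1 and VECAD at both stages. Lyve1, and Cdh5 (the VECAD gene) in the list of endothelium at large, are therefore no independent sign of identity. Ccl21a was listed at 0 in every library, where background alone would give 8.42 and 10.6 counts before culture. That 0 cannot be read as absence either. After culture Prox1, Reln, Mmrn1 and Pdpn were called lower in both genotypes, Pdpn with 0 counts in wild type cells, while Lyve1 rose 3.29-fold (3.16 to 3.42) and 3.08-fold (2.99 to 3.18). Flt4, the receptor for VEGF-C, rose 2.33-fold (2.23 to 2.43) in wild type cells, from 1092 to 2543 CPM, and its fold of 1.9 (1.85 to 1.96) in mutant cells was not called. The summed level of the lymphatic list was 5879, 5442, 6614 and 5413 CPM. The summed level of 6 markers of endothelium at large was 3719, 3929, 11223 and 10147 CPM, a fold of 3.02 and 2.58 beside the 4.01 and 2.87 of the lysosomal genes. Of 6 markers of sinusoidal endothelium, 5 were called higher in both genotypes, with Gata4 at 6.62, 7.16, 601 and 480 CPM and a summed level of 1397, 1547, 5475 and 5639 CPM. The part of either endothelial list in the lysosomal folds was not tested.

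Summed levels of macrophage, osteoclast and stromal markers were lower after culture in wild type cells, and those of mast cells were higher. The 12 macrophage markers summed to 377, 370, 274 and 358 CPM, of which Mrc1, also made by some endothelium, gave 275, 281, 234 and 307 CPM. The fold of the sum was 0.727 (0.649 to 0.813) in wild type and 0.968 (0.905 to 1.03) in mutant cells. None of them was called higher after culture, Csf1r was called lower in wild type cells, and C1qa had 0 counts in the cultured wild type library. Some macrophage markers lay near background before culture. In wild type cells Ptprc had 91 counts where background alone would give 121, while Csf1r had 121 where it would give 38.2. The 6 osteoclast markers summed to 35.7, 28.4, 6.55 and 15 CPM, with Ocstamp, Dcstamp and Oscar at 0 in wild type and Dcstamp at 0 in mutant cells after culture. In wild type cells before culture, Ocstamp had 19 counts and Dcstamp 6, where background alone would give 24.2 and 17.6. The others stood above background there: Calcr (66 against 25.9), Atp6v0d2 (38 against 18), Acp5 (34 against 13.4) and Oscar (15 against 12.2). Background was not subtracted from these sums, so the part of it in their folds was not tested. The 10 stromal markers, a class that includes the OP9 feeder, summed to 3437, 5447, 1204 and 1005 CPM, and 7 of them in wild type and 8 in mutant cells were called lower. The 6 mast cell markers summed to 94.9, 116, 177 and 103 CPM, a fold of 1.86 (1.59 to 2.18) in wild type and 0.892 (0.787 to 1.01) in mutant cells. They were called higher in wild type cells for Cpa3 and Mcpt4 and lower in mutant cells for Cpa3 and Cma1. Their part in the lysosomal culture folds was not tested.

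Background counts bear most on the weakest genes before culture. Olfactory and vomeronasal receptor genes, silent outside sensory cells, held 14.97%, 9.579%, 2.76% and 3.712% of the counts when their rate per kb is extended over all exons. For the 39 genes the median share of counts expected from this background was 17.6%, 9.82%, 1.54% and 2.56%. It passed 50% for Ctsc, Ctsf, Ctso, Idua and Sgsh in wild type cells before culture. Where background was subtracted, TMM factors were also fitted again to the subtracted counts, so folds changed by both steps. The scaled library sizes went from 4982875, 9213175, 1374563 and 3344064 to 3740025, 7960790, 1470949 and 3468201. In that setting the wild type culture fold of Idua went from 4.93 to 11.6 (3.73 to 35.8). That of Ctso went from 3.94 to 6.53 (3.27 to 13). Ctsf at 4.27 (2.01 to 9.05) and Sgsh at 4.07 (2.09 to 7.9) were then called. In the same setting the fold of Ctsl was 4.71 (4.12 to 5.39) in wild type and 3.78 (3.48 to 4.1) in mutant cells, and both were called.

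The genes whose centred log2 levels over the 4 libraries lay nearest those of Ctsl were found among 6222 genes with 50 or more counts in every library. They were Arhgap23 at a distance of 0.040, Zbtb4 at 0.047, Pawr at 0.122, Sorbs3 at 0.127 and Orai1 at 0.130, none of them a lysosomal gene of the list. Arhgap23 had 86.1, 116, 523 and 489 CPM beside the 79.5, 108, 479 and 464 CPM of Ctsl. The nearest of the other lysosomal genes were Naglu at 0.301, ranked 61, Tpp1 at 0.368, ranked 94, and Tcirg1 at 0.415, ranked 124. With 4 libraries a small distance is a description of these levels.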

How the data were processed

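RNA-seq counts of 4 libraries were used. The deposited values are read pair counts per gene symbol, made by the authors with bcl2fastq, STAR and HTSeq 0.11.2 on mm10, per the submitters' processing notes; their file names state that sambamba removed duplicates. Annotation, strand setting and further versions were not given in the sources. Gene counts were 3987150, 7943587, 1694669 and 3931557 (wild type and mutant before culture, then after it). Pairs in no gene made up 66.5%, 53.6%, 20% and 30.3% of all pairs, and pairs that did not align 21.4%, 34.1%, 67.6% and 56.2%. Both were left out with the other summary classes. These shares differed between uncultured and cultured libraries, and their part in the culture folds was not tested.

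TMM factors (edgeR 4.0.16, R 4.3.3) were 1.25, 1.16, 0.811 and 0.851. Levels carry exact Poisson 95% intervals, and folds the Clopper-Pearson interval of 1 library's share of the counts of both (scipy 1.17.1). The interval of the ratio of folds is normal on the log scale. Culture and genotype were also fitted additively with edgeR's glmQLFit over all 4 libraries, with pairing by genotype taken from the shared sorts. All were computed over the whole table. The folds with their call rule and the culture term of the fit were tested on simulated counts. Those for the call rule held counting error only. Level intervals, the ratio of folds and the genotype term were not tested in this way. Intervals cover counting error only, since there is 1 library per group. They treat counts as independent. Amplified pairs carry no molecular identifiers and are not independent, so the intervals may be too narrow even for counting error. A median log2 fold uses a prior count of 2. Exon lengths and positions are from GENCODE vM21, summed over all transcripts of a gene. Older symbols were matched through RefSeq synonyms.

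The 39 genes and all lists were chosen with earlier results of these data known. Genes are given in full where called in any comparison, with Ctsl, Tfeb and the 2 of each role with the most counts; from other lists, up to 3 called genes with the most counts are named in part, or the 2 with the most counts. For 1 gene picked in this way no values are given here. Laptm5, Gnptg, Mitf, Igf2r, Cpa3 and other marker genes named beyond that were chosen after their values were seen. Alternatives were that fit, added later, library totals, DESeq2 1.42.0 size factors, no count minimum, a minimum of 50, a 1.5-fold rule and subtraction of the receptor gene background. The subtraction setting also fitted TMM factors again to the subtracted counts.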

Additional observations from a re-analysis of the deposited data

Results flagged for a closer look

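In 9 genes the mutant to wild type fold had a whole interval above 1 before culture and below 1 after culture. The genotype fold after culture over that before it was 0.59 for Ctsb, 0.702 for Ctsd, 0.335 for Ctsf, 0.518 for Gaa, 0.578 for Grn, 0.565 for Gusb, 0.693 for Psap, 0.58 for Scarb2 and 0.546 for Tcirg1. The 9 are 24.3% of the 37 lysosomal genes measured in both comparisons, where 4.66% of 12294 genes went the same way and 0 of the 37 went the opposite way. The count was 8 with library totals, 10 with DESeq2 size factors and 9 with background subtracted. Over all genes measured in both comparisons the shares were 1.84%, 6.19% and 1.87%. With 1 library per group, the difference was not tested against any spread between replicates.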

How the results depend on the processing

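Called folds of single genes kept their direction under the 2 other scalings, the 1.5-fold rule and the subtraction of background; library totals ended 20 calls and background subtraction 5. With library totals, 12 genes were called higher in culture of wild type and 8 in culture of mutant cells, with median log2 folds of 0.95 and 0.66; before culture the genotype median was 0.17, with 1 interval below 1, and after culture 1 interval lay above 1. The median ratio of culture folds was then 0.791. With background subtracted, the medians were 1.46 and 0.87 in culture and 0.16 between genotypes before culture, the median ratio was 0.778 with 1 gene (Cd63) above 1, 2 genotype intervals lay below 1 before culture and 1 above 1 after it. The 1.5-fold rule called 28 genes higher in culture of mutant cells and 31 in wild type, where 2257 of 18807 and 2862 of 17154 genes were called. Library totals shift the median of all genes by construction. The subtraction setting changed both the counts and the TMM factors, and the part of each step was not tested. The cause of the other changes was not tested either. The count minimum moved no call. With genotype as a replicate block in edgeR's quasi-likelihood test, 32 genes were higher and 3 lower in culture, against 16 and 0 called in both genotypes by the 2-fold rule, which asks for more than a difference from 1. No library was left out, since that removes a comparison and leaves the block fit no residual degrees of freedom. Depth limits Ctss and Ctsc after culture, with at most 3 counts.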
